A study of Mus musculus with 6 samples.

Results

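The genes described here encode the classic guidance cues and their receptors: ephrins, Eph receptors, semaphorins, plexins, neuropilins, Slits, Robos, netrins and Unc5 receptors. The choice was by gene symbol, made with earlier results of these data known, and gave 68 of the 24054 genes listed, 35 of them ligands and 33 receptors or co-receptors. RNA-seq was available for 6 samples from 1 mouse ESC line, the double knock-in (DKI) line, which is heterozygous for a Foxa2-Venus and homozygous for a Sox17-Cherry fusion reporter. All 3 populations carry both reporters. The d0 cells were undifferentiated ESCs, sorted as Foxa2-Venus-negative and Sox17-Cherry-negative. The d3F cells were sorted as Venus-positive and Cherry-negative after 3 days in differentiation medium with 1 ng/ml Wnt3a and 10 ng/ml Activin A, and the d5FS cells as positive for both after 5 days in the same factors. Each population had 2 independent biological replicates, and no library of unsorted or untreated day 3 or day 5 cells was analysed here, so that time, treatment and sorting gate cannot be told apart.

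Ephrins are ligands tethered to the cell surface, by a lipid anchor in the A class and by a transmembrane segment in the B class, and they activate Eph receptor tyrosine kinases on neighbouring cells. Semaphorins signal through plexins, with neuropilins as co-receptors for the secreted class 3, Slits bind Robo receptors, and netrins bind Dcc, neogenin and the Unc5 receptors. These systems were first known for steering axons, and they also control cell sorting, migration and boundary formation in the early embryo, including gastrulation and the shaping of gut and vessels.

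The libraries held 16457729 to 22768686 estimated fragments each. The reporters' own genes followed the sort: Foxa2 had 0.0439 and 0.308 CPM (counts scaled by TMM-normalised library size) in d0 against 36.6 to 71.1 CPM in the other 4 libraries, and Sox17 rose from 0.746 and 0.513 CPM in d0 to 54.3 and 103 CPM in d5FS. All 8 pluripotency markers were lower and all 9 endoderm markers higher in d5FS than in d0. The d0 libraries stood apart from each other in the former, which summed to 2219 and 7546 CPM in d0, 1491 and 769 CPM in d3F and 339 and 247 CPM in d5FS. Dppa5a had 595 CPM in d0 replicate 1 and 4448 CPM in replicate 2, and Esrrb had 37.7 and 219 CPM. Every comparison with d0 rests on these libraries, and the part of this gap in the results was not tested beyond leaving each of them out. Lists of other cell types moved as well, counted by the calls from d0 to d5FS defined below, where 12.4% of all genes tested were higher and 10.4% lower. Of 8 visceral endoderm markers 6 rose, and all 8 summed to 28.3 and 78.4 CPM in d0, 16.8 and 18.2 CPM in d3F and 98.5 and 168 CPM in d5FS. Most of this sum in d0 and d3F was Rhox5, which was not called (log2 fold change -0.79). Rhox5 had 25.4 and 75.2 CPM in d0, 15.9 and 14 CPM in d3F and 21.8 and 36.3 CPM in d5FS. Each of the 6 that rose had at most 1.10 CPM in d0. Of 10 fibroblast genes 9 were tested, and 4, Col1a1, Col1a2, Col3a1 and Postn, rose. The list's sum went from 12.2 and 18.5 CPM in d0 over 37.1 and 85.6 CPM in d3F to 236 and 198 CPM in d5FS. Col1a2 alone had 110 and 156 CPM in d5FS. Thy1 and Twist2 went the other way without a call (log2 fold changes of -1.62 and -1.24). Col6a3, Dcn and Pdgfrb were not called either, and Lum was not tested. Of 12 neural markers 8 were tested and 4 fell, Tubb3 and Stmn2 among them, and the list's sum went from 184 and 352 CPM in d0 to 42.9 and 33.2 CPM in d5FS. Of 8 paraxial and lateral mesoderm markers 6 were tested and 2 rose, and the list summed to 2.19 and 3.02 CPM in d0, 26.5 and 54.3 CPM in d3F and 29.8 and 14.2 CPM in d5FS. What part these other markers have in the changes of guidance genes was not tested. In bulk RNA, moreover, fewer cells of a type and less RNA per cell cannot be told apart.

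Guidance genes rose more often than they fell. A gene was called where the quasi-likelihood test of edgeR gave a Benjamini-Hochberg adjusted p under 0.05, over all 14539 genes that passed a filter on low counts, and the log2 fold change was over 1 in size. Of the 68 genes 63 passed the filter. From d0 to d3F, 14 of these 63 genes (22.2%) were called, against 4.7% of all genes tested: 13 were higher, where 2.8% of all genes were, and 1 was lower, where 1.9% were. From d0 to d5FS, 29 (46.0%) were called against 22.8% of all genes, 21 of them higher and 8 lower, against 12.4% and 10.4% of all genes. From d3F to d5FS a single gene, Sema5b, was called (1.59% against 1.54% of all genes), in the upward direction, to which 1.08% of all genes belonged. No guidance gene was called lower in that step, where 0.461% of all genes were; edgeR gave 7 such genes an unadjusted p under 0.05, and the DESeq2 Wald test called 3. The median log2 fold change of the 63 genes was 0.62 for d3F against d0, 0.04 for d5FS against d3F and 0.89 for d5FS against d0, compared with -0.0059, 0.011 and 0.017 over all genes tested. Both comparisons with d0 use the same d0 libraries. These counts are a description, since a gene that passed the filter only through the population in which it is high had to differ.

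**Figure D1:**
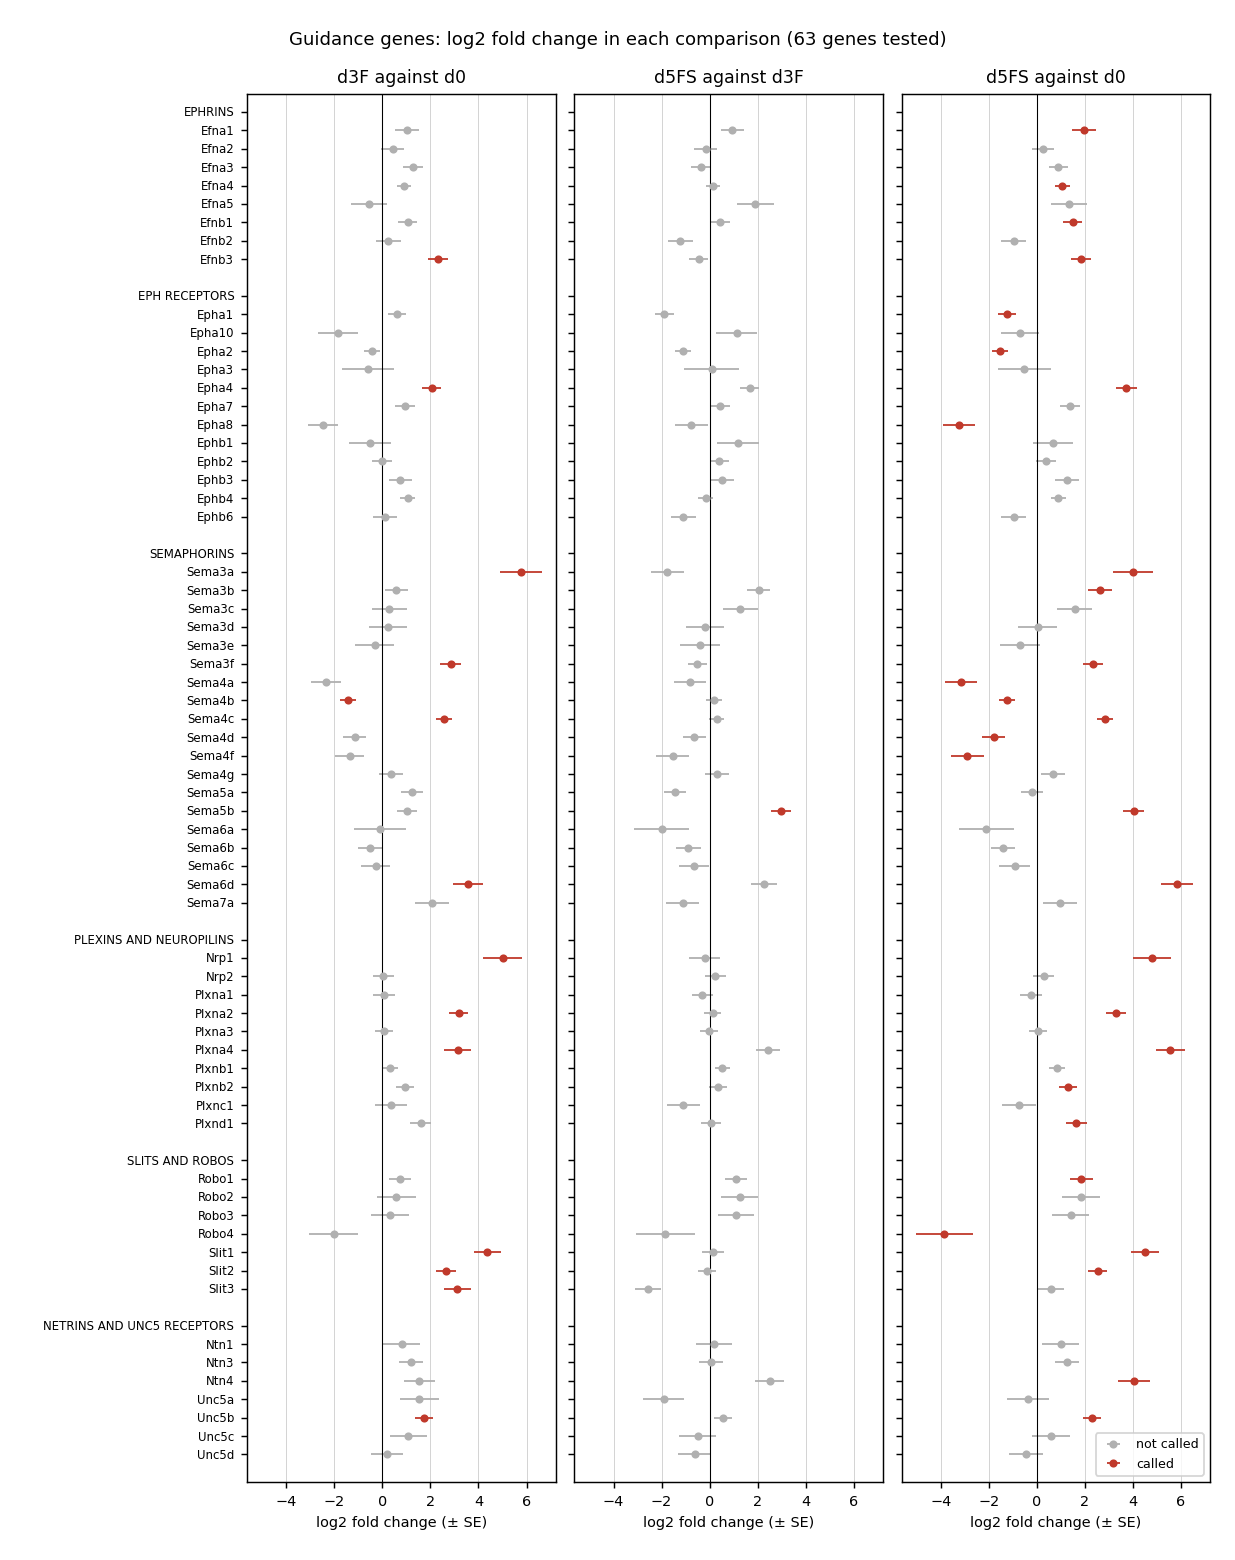
Log2 fold change (x axis, with its standard error as a bar) of the 63 guidance genes tested (y axis, by family) for d3F against d0, d5FS against d3F and d5FS against d0, with called genes in red. In the comparison of d5FS with d0, Sema6d lies farthest to the right at 5.82 and Robo4 farthest to the left at -3.86, and in that of d5FS with d3F only Sema5b is red.

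Ligands and receptors both took part. Of 33 ligands tested, 8 rose and 1 fell from d0 to d3F, and 13 rose and 4 fell from d0 to d5FS. Of 30 receptors tested, 5 rose from d0 to d3F, and 8 rose and 4 fell from d0 to d5FS. In d5FS 8 calls held under every setting tried, those of the ligands Sema4c, Sema5b, Slit1 and Slit2 and of the receptors Epha4, Nrp1, Plxna2 and Unc5b. A further 4, of Ntn4, Plxna4, Sema3f and Sema6d, also held when any 1 library was left out. Without single libraries the calls from d0 to d5FS numbered 14 (without d5FS replicate 1) to 26 (without d0 replicate 1). The calls from d0 to d3F numbered 3 without d3F replicate 2, 8 without d0 replicate 2, 10 without d3F replicate 1 and 13 without d0 replicate 1. The share called over all genes tested was 4.7% with every library. It also fell without d3F replicate 2, d0 replicate 2 or d3F replicate 1, but it rose without d0 replicate 1. Plxna2 and Slit1 kept their d3F call in all 6 fits without a library. Nrp1 lost it only without d0 replicate 2, and Sema3a, Sema3f, Sema4c, Sema6d and Slit2 only without d3F replicate 2. Plxna4 kept it in 4 of the 6 fits, Efnb3 and Slit3 in 3, Epha4 in 2, Unc5b in 1 and Sema4b in 0. Over these fits the log2 fold change from d0 to d3F ran from 3.55 to 5.81 for Nrp1, from 2.92 to 4.98 for Sema6d and from 1.33 to 2.16 for Unc5b.

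**Figure D2:**
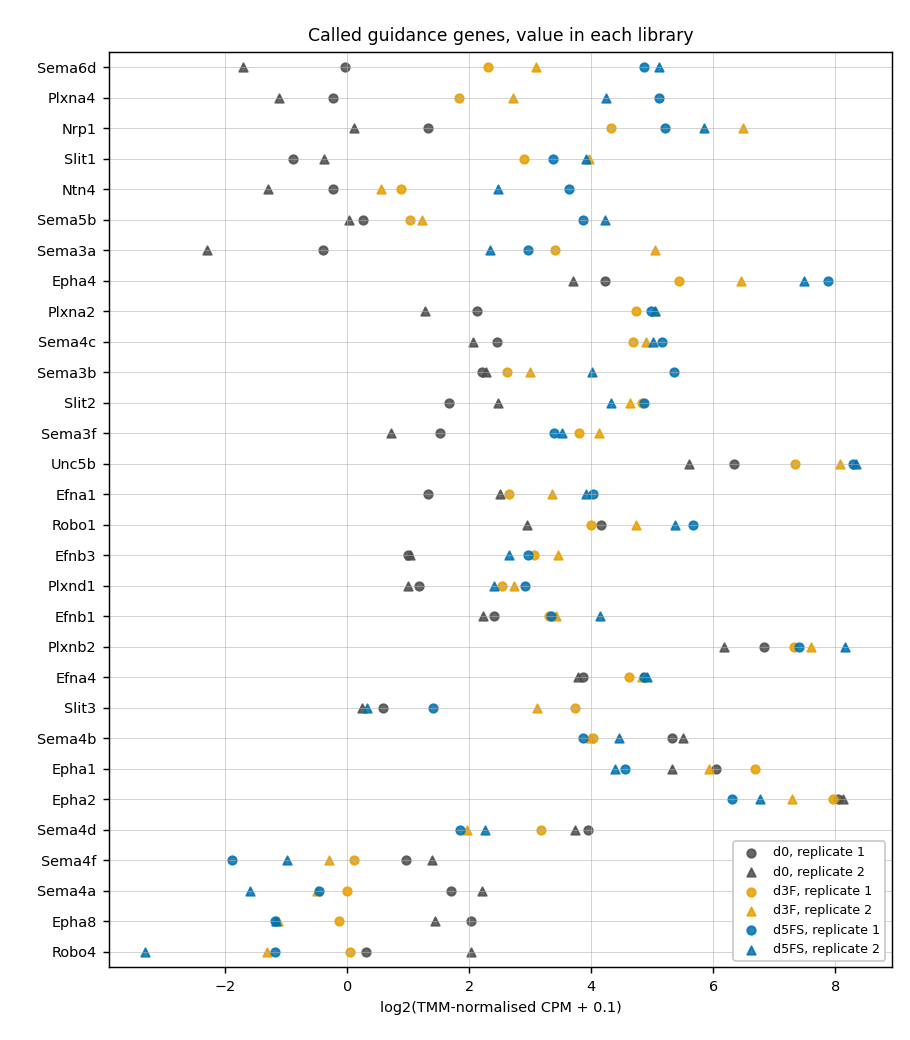
Value of each of the 30 guidance genes called in any comparison (y axis, ordered by log2 fold change from d0 to d5FS) in the 6 libraries (x axis, log2 of TMM-normalised CPM plus 0.1, circles for replicate 1 and triangles for replicate 2). For Sema6d the d0, d3F and d5FS libraries form 3 separate steps, while Slit3 is high only in the d3F libraries, at 13.2 and 8.49 CPM.

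Among the ephrins, 4 of 8 rose from d0 to d5FS, 2 of each class. Efna1, a lipid-anchored ligand of EphA2, had 2.41 and 5.59 CPM in d0, 6.17 and 10.2 CPM in d3F and 16.3 and 15 CPM in d5FS. Both d5FS libraries lay above all others, and the gene was 3.92-fold higher in d5FS than in d0 (log2 fold change 1.97 ± 0.49 SE, edgeR adjusted p = 0.0252). The call of Efna1 in d5FS was lost without d0 replicate 1, d5FS replicate 1 or d5FS replicate 2, and its log2 fold change without single libraries was 1.47 to 2.70. Efna4, another A-class ligand, had 14.5 and 13.7 CPM in d0, 24.4 and 28.5 CPM in d3F and 29 and 29.9 CPM in d5FS. Its d3F libraries lay just below those of d5FS, and it was 2.09-fold higher in d5FS than in d0 (log2 fold change 1.06 ± 0.29 SE, edgeR adjusted p = 0.035). The call of Efna4 in d5FS was lost without any 1 of the 6 libraries, at log2 fold changes of 1.03 to 1.09. Efnb1, a transmembrane ligand whose human counterpart is mutated in craniofrontonasal syndrome, had 5.22 and 4.56 CPM in d0, 9.74 and 10.6 CPM in d3F and 10.0 and 17.5 CPM in d5FS and was 2.82-fold higher in d5FS than in d0 (log2 fold change 1.49 ± 0.40 SE, edgeR adjusted p = 0.0311). The call of Efnb1 in d5FS held only without d5FS replicate 1 among the 6 fits without a library, whose log2 fold changes were 1.05 to 1.84. Efnb3, a B-class ligand that forms a midline barrier in the spinal cord, had 1.89 and 1.95 CPM in d0, 8.20 and 10.9 CPM in d3F and 7.66 and 6.19 CPM in d5FS. All later libraries lay above both d0 libraries, with Efnb3 4.96-fold higher in d3F than in d0 (log2 fold change 2.31 ± 0.42 SE, edgeR adjusted p = 0.0234) and 3.60-fold higher in d5FS than in d0 (log2 fold change 1.85 ± 0.41 SE, edgeR adjusted p = 0.017). The call of Efnb3 in d5FS was lost without d5FS replicate 1, and its log2 fold change without single libraries was 1.68 to 2.01. Its call from d0 to d3F was lost without d0 replicate 2, d3F replicate 1 or d3F replicate 2, at log2 fold changes of 2.11 to 2.51. The other ephrins were not called in any comparison. Efna3 had 6.23 and 5.33 CPM in d0, 9.87 and 18.1 CPM in d3F and 10.6 and 10.9 CPM in d5FS, and here d0 and d5FS lay apart. Efnb2, a ligand of EphB4 known from arteries, had 29.2 and 8.56 CPM in d0, 21.8 and 23.3 CPM in d3F and 9.76 and 9.52 CPM in d5FS, with a wide gap between its d0 replicates. Efna2 had 5.97 and 3.69 CPM in d0, 8.32 and 4.65 CPM in d3F and 6.18 and 5.39 CPM in d5FS, with overlapping populations. Efna1, Efna3 and Efna4 are neighbours on chromosome 3, between positions 89271733 and 89338028 of the mm10 build (GENCODE M21 annotation, as for all positions below).

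The Eph receptors moved in both directions: of 7 EphA genes tested, 3 fell and 1 rose from d0 to d5FS. Epha2, a receptor of ephrin-A1 that is abundant in epithelia and ESCs, had 263 and 279 CPM in d0, 250 and 157 CPM in d3F and 79.1 and 109 CPM in d5FS. Both d5FS libraries were the lowest of the 6, and Epha2 was 2.88-fold lower in d5FS than in d0 (log2 fold change -1.53 ± 0.34 SE, edgeR adjusted p = 0.0165). The call of Epha2 in d5FS was lost without d5FS replicate 1, and its log2 fold change without single libraries was -1.77 to -1.32. Epha1, the founding member of the family, had 66.3 and 40.1 CPM in d0, 103 and 61 CPM in d3F and 23.4 and 20.9 CPM in d5FS, its d5FS libraries again the lowest, and was 2.40-fold lower in d5FS than in d0 (log2 fold change -1.26 ± 0.38 SE, edgeR adjusted p = 0.0432). The call of Epha1 in d5FS held only without d0 replicate 2 among the 6 fits without a library, whose log2 fold changes were -1.57 to -0.87. Its locus overlaps Zyx on the opposite strand (chromosome 6, 42358487 to 42373268, minus strand), which had 166 to 1143 counts, and strand-specific counting is not stated, so reads of the pair may not be told apart. Epha8, a scarce receptor here, had 3.99 and 2.61 CPM in d0, 0.812 and 0.354 CPM in d3F and 0.340 and 0.344 CPM in d5FS, and was 9.51-fold lower in d5FS than in d0 (log2 fold change -3.25 ± 0.67 SE, edgeR adjusted p = 0.0131). The call of Epha8 in d5FS was lost without d5FS replicate 1 or d5FS replicate 2, and its log2 fold change without single libraries was -3.51 to -2.92. Its change from d0 to d3F (log2 fold change -2.48, edgeR adjusted p = 0.0624) passed the test with the replicate number as a block (adjusted p = 0.0373). Against these stood Epha4 (chromosome 1, 77367185 to 77515088, minus strand), a receptor that binds ephrins of both classes, with 18.6 and 12.9 CPM in d0, 43.1 and 87.2 CPM in d3F and 236 and 179 CPM in d5FS. The populations formed 3 separate steps, and Epha4 was 4.14-fold higher in d3F than in d0 (log2 fold change 2.05 ± 0.41 SE, edgeR adjusted p = 0.0311) and 13.2-fold higher in d5FS than in d0 (log2 fold change 3.72 ± 0.44 SE, edgeR adjusted p = 0.00248).

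No EphB receptor was called in any comparison by edgeR. Of the 5 tested, 2 had an unadjusted p under 0.05 in d5FS against d0, 1 in d3F against d0 and 0 in d5FS against d3F. DESeq2 called 0 of them in each case. Ephb4, the venous receptor of ephrin-B2 and the most abundant of them per length, had 42.1 and 30.2 CPM in d0, 70.0 and 79.9 CPM in d3F and 54.6 and 79.3 CPM in d5FS. Ephb3 had 11.4 and 18.6 CPM in d0, 16.2 and 34.2 CPM in d3F and 24.3 and 47.6 CPM in d5FS, and with the replicate block its change from d0 to d5FS passed the test (log2 fold change 1.22, edgeR adjusted p = 0.00843, against 0.0951 without the block). Ephb2, which with EphB3 positions cells along the intestinal crypt, had 15.2 and 15 CPM in d0, 20.4 and 9.15 CPM in d3F and 21.1 and 18.1 CPM in d5FS, with no separation of the populations. Epha7, too, passed only with the block (log2 fold change 1.33, edgeR adjusted p = 0.0443, against 0.0524 without it).

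Class 3 semaphorins are secreted and repel axons through neuropilin and plexin complexes. Sema3a, the first of them to be isolated as a collapse-inducing factor of growth cones, had 0.658 and 0.103 CPM in d0, 10.5 and 32.8 CPM in d3F and 7.72 and 4.99 CPM in d5FS. The d3F libraries were the highest, although wide apart from each other, and d5FS lay between d3F and d0. Sema3a was 54.5-fold higher in d3F than in d0 (log2 fold change 5.77 ± 0.87 SE, edgeR adjusted p = 0.014) and 16-fold higher in d5FS than in d0 (log2 fold change 4.0 ± 0.83 SE, edgeR adjusted p = 0.0132). The call of Sema3a in d5FS was lost without d5FS replicate 1, and its log2 fold change without single libraries was 3.27 to 5.86. Its call from d0 to d3F was lost without d3F replicate 2, and the 6 fits gave log2 fold changes of 4.75 to 7.63. Sema3f, which signals through neuropilin-2, had 2.76 and 1.54 CPM in d0, 13.8 and 17.3 CPM in d3F and 10.3 and 11.3 CPM in d5FS, all 4 later libraries lying above d0. It was 7.18-fold higher in d3F than in d0 (log2 fold change 2.84 ± 0.43 SE, edgeR adjusted p = 0.0142) and 5.01-fold higher in d5FS than in d0 (log2 fold change 2.32 ± 0.42 SE, edgeR adjusted p = 0.00858). Sema3b had 4.52 and 4.72 CPM in d0, 6.05 and 7.83 CPM in d3F and 41 and 16.1 CPM in d5FS, with d5FS above the rest, and was 6.18-fold higher in d5FS than in d0 (log2 fold change 2.63 ± 0.49 SE, edgeR adjusted p = 0.00927). The call of Sema3b in d5FS was lost without d5FS replicate 1, and its log2 fold change without single libraries was 1.80 to 3.16. Sema3c, known for its part in the cardiac outflow tract, was not called, with 8.99 and 3.02 CPM in d0, 8.73 and 6.01 CPM in d3F and 29.3 and 6.48 CPM in d5FS. With the replicate block it passed from d0 to d5FS (log2 fold change 1.45, edgeR adjusted p = 0.0358, against 0.154). Sema3e, which binds plexin-D1 without a neuropilin, had 65.4 and 16.8 CPM in d0, 42 and 23.6 CPM in d3F and 43.1 and 6.94 CPM in d5FS, and its populations overlapped.

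In the class 4 semaphorins, which are membrane-bound ligands mainly of B-type plexins, falls outnumbered rises as in the EphA receptors, with 4 of 6 genes lower and 1 higher in d5FS than in d0. Sema4b, the most abundant of them per length in d0, had 40.0 and 45.3 CPM in d0, 16.2 and 15.7 CPM in d3F and 14.4 and 21.8 CPM in d5FS. It stood apart between d0 and all later libraries, as the 1 guidance gene called lower in d3F, where it was 2.67-fold lower in d3F than in d0 (log2 fold change -1.42 ± 0.33 SE, edgeR adjusted p = 0.0491), and it was 2.35-fold lower in d5FS than in d0 (log2 fold change -1.24 ± 0.33 SE, edgeR adjusted p = 0.0294). The call of Sema4b in d5FS held only without d0 replicate 1 or d5FS replicate 2 among the 6 fits without a library, whose log2 fold changes were -1.56 to -0.97. Its call from d0 to d3F held in 0 of the 6, at log2 fold changes of -1.50 to -1.31. Sema4d, also known as CD100 and a ligand of plexin-B1, had 15.4 and 13.2 CPM in d0, 8.97 and 3.79 CPM in d3F and 3.52 and 4.70 CPM in d5FS and was 3.47-fold lower in d5FS than in d0 (log2 fold change -1.80 ± 0.49 SE, edgeR adjusted p = 0.0318). The call of Sema4d in d5FS held only without d3F replicate 1 or d3F replicate 2 among the 6 fits without a library, whose log2 fold changes were -2.01 to -1.61. Sema4a had 3.16 and 4.51 CPM in d0, 0.893 and 0.606 CPM in d3F and 0.624 and 0.229 CPM in d5FS, with both d0 libraries above all others, and was 8.86-fold lower in d5FS than in d0 (log2 fold change -3.15 ± 0.67 SE, edgeR adjusted p = 0.0144). The call of Sema4a in d5FS was lost without d5FS replicate 2, and its log2 fold change without single libraries was -4.03 to -2.60. Sema4f had 1.84 and 2.51 CPM in d0, 0.974 and 0.707 CPM in d3F and 0.170 and 0.401 CPM in d5FS, a fall from few counts, and was 7.48-fold lower in d5FS than in d0 (log2 fold change -2.90 ± 0.68 SE, edgeR adjusted p = 0.0202). The call of Sema4f in d5FS was lost without d0 replicate 2, d5FS replicate 1 or d5FS replicate 2, and its log2 fold change without single libraries was -3.62 to -2.43. In the other direction, Sema4c (chromosome 1, 36548639 to 36558349, minus strand), a ligand of plexin-B2, had 5.35 and 4.05 CPM in d0, 25.5 and 29.8 CPM in d3F and 35.9 and 32.1 CPM in d5FS. All 4 later libraries lay far above d0, and Sema4c was 5.87-fold higher in d3F than in d0 (log2 fold change 2.55 ± 0.33 SE, edgeR adjusted p = 0.0103) and 7.21-fold higher in d5FS than in d0 (log2 fold change 2.85 ± 0.33 SE, edgeR adjusted p = 0.00248).

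Of the 7 semaphorins of classes 5 to 7, 2 rose. Sema6d (chromosome 2, 124089969 to 124667770, plus strand), a transmembrane ligand of plexin-A1 that also acts in the developing heart, had 0.877 and 0.205 CPM in d0, 4.87 and 8.44 CPM in d3F and 28.9 and 34.4 CPM in d5FS. The 3 populations did not overlap, and Sema6d was 11.9-fold higher in d3F than in d0 (log2 fold change 3.57 ± 0.61 SE, edgeR adjusted p = 0.019) and 56.7-fold higher in d5FS than in d0 (log2 fold change 5.82 ± 0.65 SE, edgeR adjusted p = 0.00205), the largest rise of the 63 genes. Sema5b (chromosome 16, 35541145 to 35664732, plus strand), which carries thrombospondin repeats beside its Sema domain, had 1.10 and 0.923 CPM in d0, 1.95 and 2.22 CPM in d3F and 14.5 and 18.7 CPM in d5FS. Its d3F libraries lay above d0 and far below d5FS, and it was 7.93-fold higher in d5FS than in d3F (log2 fold change 2.99 ± 0.42 SE, edgeR adjusted p = 0.0193) and 16.3-fold higher in d5FS than in d0 (log2 fold change 4.03 ± 0.44 SE, edgeR adjusted p = 0.00195). The call between d3F and d5FS was lost without any 1 of the d3F or d5FS libraries, with log2 fold changes of 2.79 to 3.15 over all fits without 1 library. Sema6a, a ligand of plexin-A2 and plexin-A4, was not called and had 65.3 and 4.05 CPM in d0, 50.5 and 14.1 CPM in d3F and 12.5 and 3.67 CPM in d5FS. In each population its replicate 1 exceeded replicate 2.

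Plexins and neuropilins, the receptors of these ligands, rose wherever they were called: 3 of 10 from d0 to d3F and 5 from d0 to d5FS. Nrp1 (chromosome 8, 128358604 to 128503363, plus strand), the co-receptor of Sema3a and of vascular endothelial growth factor, had 2.41 and 0.974 CPM in d0, 19.8 and 90.0 CPM in d3F and 37 and 57.8 CPM in d5FS. Both d0 libraries lay far below the rest, the d3F replicates enclosed those of d5FS, and Nrp1 was 32-fold higher in d3F than in d0 (log2 fold change 5.0 ± 0.80 SE, edgeR adjusted p = 0.0155) and 27.7-fold higher in d5FS than in d0 (log2 fold change 4.79 ± 0.79 SE, edgeR adjusted p = 0.00614). Plxna2 (chromosome 1, 194618218 to 194816869, plus strand), a partner of neuropilins and receptor of Sema6a, had 4.25 and 2.31 CPM in d0, 26.6 and 32.7 CPM in d3F and 31.5 and 33 CPM in d5FS. Its d3F and d5FS libraries lay close together, and it was 9.0-fold higher in d3F than in d0 (log2 fold change 3.17 ± 0.39 SE, edgeR adjusted p = 0.0103) and 9.79-fold higher in d5FS than in d0 (log2 fold change 3.29 ± 0.40 SE, edgeR adjusted p = 0.00263). Plxna4 (chromosome 6, 32144268 to 32588192, minus strand), another plexin of the A class, had 0.746 and 0.359 CPM in d0, 3.45 and 6.47 CPM in d3F and 34.4 and 18.9 CPM in d5FS. The populations did not overlap, and Plxna4 was 8.77-fold higher in d3F than in d0 (log2 fold change 3.13 ± 0.57 SE, edgeR adjusted p = 0.0246) and 47.2-fold higher in d5FS than in d0 (log2 fold change 5.56 ± 0.61 SE, edgeR adjusted p = 0.00195). An antisense gene in its locus, Plxna4os1, had at most 4 counts in any library. Plxnb2, the receptor of Sema4c and the most abundant plexin per length, had 113 and 71.9 CPM in d0, 160 and 195 CPM in d3F and 169 and 286 CPM in d5FS, and was 2.45-fold higher in d5FS than in d0 (log2 fold change 1.29 ± 0.37 SE, edgeR adjusted p = 0.0385). The call of Plxnb2 in d5FS held only without d0 replicate 1 among the 6 fits without a library, whose log2 fold changes were 0.87 to 1.65. Plxnd1, the receptor of Sema3e known from vessels, had 2.15 and 1.90 CPM in d0, 5.72 and 6.57 CPM in d3F and 7.43 and 5.22 CPM in d5FS, and was 3.12-fold higher in d5FS than in d0 (log2 fold change 1.64 ± 0.43 SE, edgeR adjusted p = 0.0297). The call of Plxnd1 in d5FS was lost without any 1 of the 6 libraries, at log2 fold changes of 1.36 to 1.88. With the block it was called from d0 to d3F as well (log2 fold change 1.61, edgeR adjusted p = 0.0472, against 0.0741). Among those not called, Plxna1, a receptor of Sema6d, had 152 and 65.5 CPM in d0, 146 and 79.9 CPM in d3F and 102 and 81 CPM in d5FS. Plxnb1, the receptor of Sema4d, had 57.2 and 33.6 CPM in d0, 62.3 and 51.1 CPM in d3F and 81.9 and 82 CPM in d5FS. Nrp2, the co-receptor of Sema3f, had 22.5 and 21.9 CPM in d0, 13.3 and 32.6 CPM in d3F and 22.3 and 31.7 CPM in d5FS. Of these 3, only Plxnb1 had both d5FS libraries above both d0 libraries.

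All 3 Slits rose from d0 to d3F. Slit1 (chromosome 19, 41600257 to 41743665, minus strand) had 0.439 and 0.666 CPM in d0, 7.39 and 15.4 CPM in d3F and 10.2 and 14.9 CPM in d5FS. Its d3F and d5FS libraries overlapped, far above d0, and it was 20.5-fold higher in d3F than in d0 (log2 fold change 4.36 ± 0.56 SE, edgeR adjusted p = 0.0103) and 22.6-fold higher in d5FS than in d0 (log2 fold change 4.50 ± 0.57 SE, edgeR adjusted p = 0.00294). Slit2 (chromosome 5, 47983138 to 48307733, plus strand) had 3.07 and 5.43 CPM in d0, 28.4 and 24.9 CPM in d3F and 29 and 20.0 CPM in d5FS, with the same shape, and was 6.27-fold higher in d3F than in d0 (log2 fold change 2.65 ± 0.40 SE, edgeR adjusted p = 0.0143) and 5.77-fold higher in d5FS than in d0 (log2 fold change 2.53 ± 0.40 SE, edgeR adjusted p = 0.00531). Slit3 had 1.40 and 1.08 CPM in d0, 13.2 and 8.49 CPM in d3F and 2.55 and 1.15 CPM in d5FS and departed from the other two after d3F. It was 8.71-fold higher in d3F than in d0 (log2 fold change 3.12 ± 0.56 SE, edgeR adjusted p = 0.0219), but was not called between d0 and d5FS. Its step from d3F to d5FS (log2 fold change -2.55, edgeR adjusted p = 0.0634) passed with the replicate block (adjusted p = 0.0203). Of their receptors 1 rose and 1 fell in d5FS. Robo1, the broadly expressed receptor, had 17.9 and 7.59 CPM in d0, 15.8 and 26.6 CPM in d3F and 50.6 and 41.3 CPM in d5FS and was 3.61-fold higher in d5FS than in d0 (log2 fold change 1.85 ± 0.47 SE, edgeR adjusted p = 0.0256). The call of Robo1 in d5FS was lost without d0 replicate 2, d5FS replicate 1 or d5FS replicate 2, and its log2 fold change without single libraries was 1.37 to 2.59. Robo4, the receptor of endothelial cells, had 1.14 and 4.0 CPM in d0, 0.934 and 0.303 CPM in d3F and 0.340 and 0 CPM in d5FS, which rests on 26 and 78 counts in d0 against 6 and 0 in d5FS, and was 14.5-fold lower in d5FS than in d0 (log2 fold change -3.86 ± 1.19 SE, edgeR adjusted p = 0.0491). The call of Robo4 in d5FS held only without d0 replicate 1 among the 6 fits without a library, whose log2 fold changes were -8.74 to -2.68. With the replicate block its adjusted p was 0.0502, so the call was lost. In the same libraries 6 of 11 endothelial and blood markers were tested. Of these 3 fell, among them Pecam1, from 13.8 and 27.5 CPM in d0 to 2.44 and 3.27 CPM in d5FS, while Gata1 rose. The sum of all 11 went from 36.3 and 36.6 CPM in d0 to 22 and 34.0 CPM in d5FS, with Hbb-bh1 at 0 in every library. The part of such cells in the fall of Robo4 was not tested. Robo2 and Robo3 were scarce and not called. Robo2 had 0.132 and 0.820 CPM in d0, 0.650 and 0.758 CPM in d3F and 1.65 and 1.72 CPM in d5FS. Robo3, which lets commissural axons cross the midline, had 0.351 and 0.308 CPM in d0, 0.609 and 0.202 CPM in d3F and 1.19 and 0.573 CPM in d5FS.

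Of the netrins and Unc5 receptors, 1 of each rose. Unc5b (chromosome 10, 60762593 to 60831581, minus strand), a receptor through which netrin-1 repels axons and vessels, had 80.9 and 48.4 CPM in d0, 161 and 271 CPM in d3F and 312 and 325 CPM in d5FS. Both d5FS libraries held more Unc5b than any other library, and it was 3.34-fold higher in d3F than in d0 (log2 fold change 1.74 ± 0.38 SE, edgeR adjusted p = 0.0408) and 4.93-fold higher in d5FS than in d0 (log2 fold change 2.30 ± 0.39 SE, edgeR adjusted p = 0.00638). Ntn4 (chromosome 10, 93640681 to 93747207, plus strand), a netrin related to laminin beta chains and found in basement membranes, had 0.746 and 0.308 CPM in d0, 1.75 and 1.36 CPM in d3F and 12.3 and 5.45 CPM in d5FS. Most of its increase lay between d3F and d5FS, and Ntn4 was 16.4-fold higher in d5FS than in d0 (log2 fold change 4.04 ± 0.67 SE, edgeR adjusted p = 0.00603). Ntn1, the netrin that attracts axons through Dcc, was more abundant but not called, with 6.93 and 59.5 CPM in d0, 56.8 and 59.4 CPM in d3F and 51.4 and 80.9 CPM in d5FS. Only d0 replicate 1 was low, and the other 5 libraries lay between 51.4 and 80.9 CPM. Ntn3 had 3.38 and 2.31 CPM in d0, 4.30 and 8.89 CPM in d3F and 5.67 and 7.91 CPM in d5FS. Unc5a, a neuronal netrin receptor, was scarce, with 0.526 and 0.359 CPM in d0, 1.99 and 0.606 CPM in d3F and 0.511 and 0.172 CPM in d5FS.

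With both comparisons side by side, the 29 genes called in d5FS differed in how much of their change was present in d3F. This is a description, since timing was tested only as the step from d3F to d5FS. For Plxna2, Slit1, Slit2, Nrp1 and Sema4c the log2 fold change in d3F (3.17, 4.36, 2.65, 5.0 and 2.55) was about that in d5FS (3.29, 4.50, 2.53, 4.79 and 2.85). Sema5b and Ntn4 were not called in d3F, and Sema6d, Plxna4 and Epha4 had log2 fold changes of 3.57, 3.13 and 2.05 in d3F and of 5.82, 5.56 and 3.72 in d5FS. In the main fit Ntn4, Sema6d, Plxna4 and Epha4 were not called from d3F to d5FS (edgeR adjusted p = 0.0858, 0.0831, 0.0629 and 0.0852). Calls between d3F and d5FS depended on the pairing of the libraries by replicate number: with the number as a block, 6 guidance genes were called in that step, where 6.31% of all genes were. They were Sema5b, Ntn4 (log2 fold change 2.41, edgeR adjusted p = 0.0313), Plxna4 (2.37, 0.041) and Sema6d (2.26, 0.0456), which were higher, and Epha1 (-1.83, 0.0132) and Slit3, which were lower. Epha4 was not called with the block either (log2 fold change 1.68, edgeR adjusted p = 0.0501).

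Levels of different genes were compared per length, on TPM rescaled so that protein-coding genes have the same sum in each library. On this scale the guidance repertoire of ESCs was led by 1 receptor. Epha2 alone held 26.6% and 34.6% of the summed TPM of the 68 genes in the d0 libraries, 19.5% and 11.7% in those of d3F, and 5.79% and 7.67% in those of d5FS. The share of Unc5b was 5.4% and 3.96% in d0 libraries, 8.28% and 13.3% at the d3F stage, and 15.0% and 15.1% in d5FS, where it ranked first in both. In d5FS, Epha4 held 10.5% and 7.65% and Plxnb2 7.32% and 11.9%. By family, Eph receptors held 43.9% and 50.2% of the sum in d0, went to 39.9% and 31.0% in d3F, and ended at 26.0% and 28.0% in d5FS. Netrins and Unc5 receptors went from 6.44% and 9.52% in d0 over 12% and 17.1% in d3F to 19.5% and 20.1% in d5FS. Ephrins held 12% to 17.3% throughout, semaphorins 10.6% to 16.9%, plexins and neuropilins 13.2% to 22.7%, and Slits and Robos 1.35% to 3.68%. Such shares are relative, so a family's share can fall while its own level does not. The summed TPM of Eph receptors on the protein-coding scale was 166 and 117 in d0 and 151 and 137 in d5FS. On 2 other scales this Eph sum was lower in d5FS for both replicate numbers. Deposited TPM gave 75.8 and 33.4 for d0 but 43.8 and 31.6 for d5FS. Using TMM factors, d0 had 73.5 and 38.1, against 40.8 and 31.8 for d5FS. The d0 and d5FS libraries overlapped on each scale, so whether the Eph level itself fell depends on the scale. The sum of all 68 genes went from 378 and 233 in d0 to 581 and 488 in d5FS on the protein-coding scale. In TPM as deposited it went from 173 and 66.5 to 168 and 113, and with the TMM factors from 167 and 75.8 to 157 and 113. Both d5FS libraries thus lay above both d0 libraries only on the protein-coding scale.

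**Figure D3:**
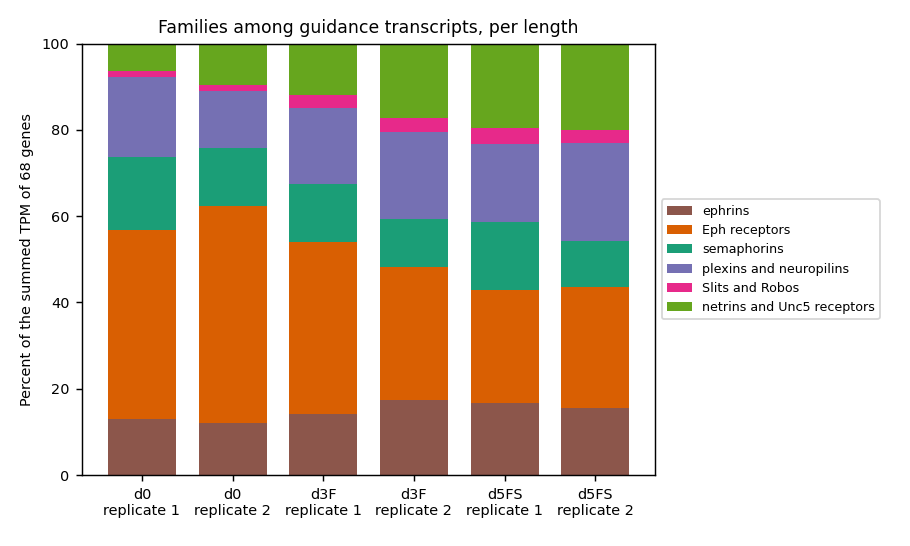
Share of each family in the summed TPM of the 68 guidance genes (y axis, percent) in each library (x axis), as stacked bars. The Eph receptor segment shrinks from 43.9% and 50.2% in d0 to 26.0% and 28.0% in d5FS, and that of netrins and Unc5 receptors, mostly Unc5b, grows from 6.44% and 9.52% to 19.5% and 20.1%.

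Genes that act downstream of or beside these receptors moved in both directions. Of 89 such genes in 4 lists, 84 were tested, and 20 rose and 6 fell from d0 to d5FS (31.0% called, against 22.8% of all genes). Of all genes 12.4% were called higher and 10.4% lower. Among 24 genes of Eph signalling 4 rose and 2 fell (25% called, close to the 22.8% of all genes). Chn2, a chimaerin related to the effector of EphA4, went from 1.75 and 1.13 CPM in d0 to 11.2 and 18 CPM in d5FS (log2 fold change 3.33, edgeR adjusted p = 0.00834), and the exchange factor Vav3 (2.43) and the ephrin sheddase Adam10 (1.95) rose as well, while the exchange factors Arhgef15 (-2.14) and Tiam1 (-1.96) fell. Of 23 tested genes of semaphorin and plexin signalling 7 rose and 3 fell (43.5% called). The rises of the oxidoreductases Mical2 and Mical1 and of the small GTPase Rras had log2 fold changes of 2.81, 2.49 and 2.62, and the falls of Crmp1 and Dpysl4, of the collapsin response mediator family, and of Rnd1, a small GTPase that binds plexins, had -3.64, -2.67 and -3.42. Crmp1 had 35.1 and 34.0 CPM in d0 and 2.33 and 3.21 CPM in d5FS. Dpysl3, of the same family, rose from 24.4 and 37.7 CPM in d0 to 165 and 174 CPM in d5FS (log2 fold change 2.45). Its relatives Dpysl2 and Dpysl5 were not called from d0 to d5FS. In the Slit and Robo list 4 of 18 genes rose and none fell (22.2% called, close to the share of all genes). They were led by Flrt3, a binding partner of Robo1 and Unc5b, from 10.6 and 4.56 CPM to 120 and 183 CPM (log2 fold change 4.32, edgeR adjusted p = 0.00294). Srgap1, a GTPase-activating protein that binds Robo1 (3.88), and the proteoglycan Gpc1 (1.39) rose too. In the netrin list 6 of 20 tested genes rose and 1 fell (35% called), with Rgma, a ligand of neogenin, at 4.69, Flrt2 at 3.07 and Hfe2 at -3.68. From d0 to d3F 4 of the 84 genes rose and 1 fell (5.95% called, close to the 4.7% of all genes), and between d3F and d5FS 3 rose and 2 fell (5.95%, against 1.54%).

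Promoters are shown for the 5 guidance genes with the largest rises from d0 to d5FS for which the table of RefSeq promoters (build GRCm38.p6, the mm10 assembly) held an entry, which it did for 59 of the 68 genes. Each line gives the 250 bases before a RefSeq start site, 5′ to 3′ on the strand of the gene, with CpG dinucleotides in capitals, since CpG content is a feature by which mammalian promoters are commonly divided. The windows lie at chr2:124089719-124089968 (Sema6d, plus strand, the first of 2 starts), chr8:128358823-128359072 (Nrp1, plus), chr10:93640799-93641048 (Ntn4, plus), chr16:35541112-35541361 (Sema5b, plus) and chr5:13396534-13396783 (Sema3a, plus). Those of Nrp1, Ntn4 and Sema3a lie inside the longer loci of GENCODE, and that of Sema5b spans the start of its GENCODE locus.
Sema6d: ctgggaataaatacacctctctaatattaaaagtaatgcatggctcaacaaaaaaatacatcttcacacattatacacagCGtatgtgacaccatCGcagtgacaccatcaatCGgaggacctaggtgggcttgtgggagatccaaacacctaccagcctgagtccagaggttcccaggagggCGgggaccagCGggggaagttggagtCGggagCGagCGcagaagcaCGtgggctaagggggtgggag
Nrp1: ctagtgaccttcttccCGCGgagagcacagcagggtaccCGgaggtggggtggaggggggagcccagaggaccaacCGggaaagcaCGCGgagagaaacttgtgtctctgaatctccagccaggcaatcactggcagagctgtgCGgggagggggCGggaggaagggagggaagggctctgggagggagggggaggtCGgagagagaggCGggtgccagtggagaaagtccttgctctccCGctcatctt
Ntn4: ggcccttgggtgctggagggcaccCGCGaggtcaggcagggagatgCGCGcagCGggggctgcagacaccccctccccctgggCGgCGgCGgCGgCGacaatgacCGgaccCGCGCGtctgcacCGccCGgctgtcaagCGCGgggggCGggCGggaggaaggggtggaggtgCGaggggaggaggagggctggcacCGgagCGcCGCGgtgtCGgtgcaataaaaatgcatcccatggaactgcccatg
Sema5b: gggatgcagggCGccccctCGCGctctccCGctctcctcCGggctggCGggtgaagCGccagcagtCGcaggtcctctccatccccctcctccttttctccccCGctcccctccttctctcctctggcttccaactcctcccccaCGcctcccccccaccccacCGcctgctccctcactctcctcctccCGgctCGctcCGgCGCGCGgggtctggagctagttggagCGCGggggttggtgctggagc
Sema3a: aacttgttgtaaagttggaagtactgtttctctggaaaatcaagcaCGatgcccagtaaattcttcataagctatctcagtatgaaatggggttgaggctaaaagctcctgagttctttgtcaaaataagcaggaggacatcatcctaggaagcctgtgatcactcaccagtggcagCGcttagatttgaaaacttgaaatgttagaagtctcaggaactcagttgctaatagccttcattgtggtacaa

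These promoters differ widely in CpG content although the genes moved in the same direction. Ntn4 holds 26 CpG in its window, Sema5b 19, Nrp1 11, Sema6d 9 and Sema3a 2, and the ratio of observed to expected CpG is 0.809, 0.644, 0.472, 0.536 and 0.194. Over the 75 promoters of the 59 genes, 50.7% had a ratio above 0.6, against 34.0% of the 32851 promoters in the table. The share was 55.0% (11 of 20 promoters) for genes higher in d5FS than in d0, 21.4% (3 of 14) for genes lower, and 61.1% (22 of 36) for genes tested and not called. Promoters of 1 gene overlap, and no test was made. The letters TGTTTAC, the core of the Foxa motif, were searched on both strands of each window of 250 bases and occurred in 0 of the 75 promoters, against 3.17% of all promoters. The 75 promoters were richer in G and C, with a median of 64.4% against 52.4% for all promoters. The part of this in the motif counts was not tested.

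Searched in the same way, the letters AGATAA, bound by factors of the Gata family, occurred in 3 of 75 promoters (4%), those of Efna4, Epha3 and Robo2, against 9.99% of all. Here too, the part of the difference in G and C content was not tested. Neither motif contains the other, and a missing match says only that these letters are not in this window. No entry was found for Efnb3, Ntn1, Plxna1, Plxna4, Sema3b, Sema3f, Sema6a, Slit1 and Unc5d.

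Replicates of the guidance genes were often far apart. The log2 ratio of replicate 1 to replicate 2 (CPM plus 0.5) exceeded 1 in size in 14 of the 63 genes at d0, 12 at the d3F stage and 9 at the d5FS stage (22.2%, 19.0% and 14.3%, against 15.5%, 6.73% and 10.8% of all genes tested). Sema6a stood out, its log2 ratio being 3.85 among d0 libraries, 1.80 among those of d3F and 1.64 among those of d5FS. Ntn1 was at -3.01 in d0 and within 1 of 0 in the other populations, and Efna5 was at 2.51 in d0. Of the called genes, Nrp1 had -2.16 in d3F and Sema3a -1.60. In the study's supplement, the 2 libraries of a population carry different names, total RNA and mRNA, without a replicate number, and the part of this difference in the gaps was not tested.

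**Figure D4:**
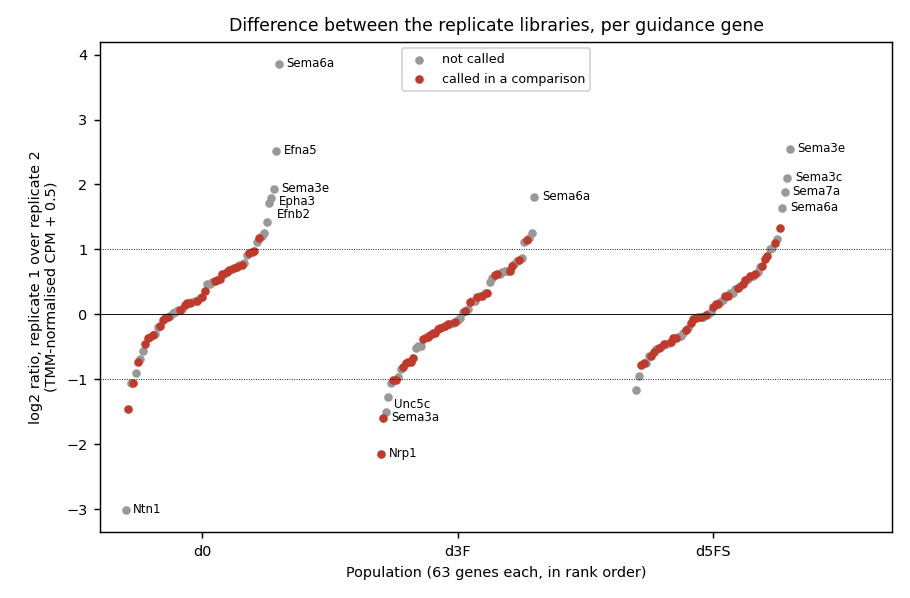
Log2 ratio of replicate 1 to replicate 2 (y axis, TMM-normalised CPM plus 0.5) of the 63 guidance genes tested in each population (x axis, genes in rank order), with dotted lines at a log2 ratio of 1 and -1 and genes called in any comparison in red. Sema6a is at the top in d0 and d3F (3.85 and 1.80), and Ntn1 at the bottom in d0 (-3.01).

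The remaining genes gave little to compare. Epha5, Epha6, Ntn5, Plxnb3 and Sema3g did not pass the filter, with at most 14 counts in any library: 0 to 8 for Epha5, 0 to 2 for Epha6, 0 to 14 for Ntn5, 0 to 3 for Plxnb3 and 3 to 7 for Sema3g. They were not tested for a change. Of the 33 genes that were tested and not called in any comparison, the 16 without values above were Efna5, Epha3, Epha7, Epha10, Ephb1, Ephb6, Plxna3, Plxnc1, Sema3d, Sema4g, Sema5a, Sema6b, Sema6c, Sema7a, Unc5c and Unc5d, with means over the 6 libraries of 0.0857 to 3.91 TPM on the protein-coding scale.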

How the data were processed

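RNA-seq libraries of d0, d3F and d5FS cells were analysed, with 2 independent biological replicates each, and the label of each library gave its day, sorting markers and replicate number. According to the study's methods, ribosomal RNA was depleted and libraries were made with the TruSeq V2 kit, whose strand setting is not stated, and sequenced as 100 bp paired ends. The authors deposited 1 gene table per library, made with STAR (mm10) and RSEM, whose versions are not given in the sources used here. As deposited, expected counts are fragments per gene as estimated by RSEM, without normalisation. The deposited TPM values are scaled for effective length to the same total per library, and the authors deposited FPKM values and effective lengths as well, which were not used as measurements. Up to 330393 TPM fell on a single short RNA, so TPM were rescaled over the 20619 protein-coding genes when levels of different genes were compared, which leaves shares among the 68 genes unchanged.

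Expected counts were rounded, filtered with filterByExpr (14539 genes) and normalised by TMM in edgeR 4.0.16 (R 4.3.3). A quasi-likelihood fit of all 6 libraries with a mean per population (glmQLFit, glmQLFTest, 3 residual degrees of freedom, prior count 0.125) was tested in 3 comparisons with Benjamini-Hochberg adjustment over all genes tested, and a call needed an adjusted p under 0.05 together with a log2 fold change over 1 in size. Standard errors are log2 fold changes over the square root of F. The script was tested on simulated data. Same-numbered libraries deviated together (r = 0.314, 0.324 and 0.278 between populations over 14539 genes). In each population replicate 1 also had fewer genes with counts than replicate 2 (16977 against 18649 in d0, 16840 against 18354 in d3F, 16773 against 19859 in d5FS). The part of the total RNA and mRNA names in this was not tested. The main fit, which gave the calls above unless stated, left this pairing out, and a fit with the replicate number as a block was an alternative. Others were DESeq2 1.42.0 (size factors, Wald test, and a test of changes beyond a log2 fold of 1), leaving out the filter, at least 10 counts in every library, protein-coding genes only, only the 2 populations compared, and each library left out. Replicate libraries differed by more than sampling noise. Over all genes tested, their counts differed by 85.0 to 190 chi-square per degree of freedom, which sampling noise alone would bring near 1. This average gives most weight to genes with many counts. For genes with few counts, such as Robo4 with 6 and 0 in d5FS, the part of depth in the spread was not tested.

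The 68 genes, the related lists and the marker lists were chosen with earlier results of these data known. Values in every library are given for each gene called in any comparison. They are also given for the 3 genes with the highest mean TPM among those not called in each of 6 groups of families. Related genes are named up to 3 per direction and list, with Dpysl2, Dpysl3 and Dpysl5 in addition. Gene positions come from GENCODE M21 (mm10) and promoters from RefSeq (GRCm38.p6).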

Additional observations from a re-analysis of the deposited data

How the results depend on the processing

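No guidance gene called in a comparison, with or without the replicate block, changed its direction there under any setting tried. Among genes not called, the block turned the log2 fold change from d0 to d3F of Sema6a from -0.10 to 0.52 and of Nrp2 from 0.05 to -0.08. From d0 to d3F, 14 calls became 9 with at least 10 counts in every library and 9 with only d0 and d3F in the fit, 10 by DESeq2 when changes were tested against a log2 fold of 1, and 3 to 13 without single libraries. They became 20 without a filter (17 higher and 3 lower), 18 by the DESeq2 Wald test (15 and 3) and 16 with the block (14 and 2), against 13 higher and 1 lower. Over all genes the calls in this comparison went from 4.7% to 2.95% with at least 10 counts, 3.07% with only 2 populations, 2.64% by the DESeq2 test against a log2 fold of 1, 9.04% without a filter and 10.4% by the Wald test. From d3F to d5FS, 1 call became 13 without a filter, 6 with the replicate block, 7 with only d3F and d5FS in the fit and 9 by the DESeq2 Wald test, and 0 to 7 without single libraries, with 0 wherever a d3F or d5FS library was left out. Over all genes, 1.54% became 6.66% without a filter, 3.83% with only 2 populations and 7.59% by the Wald test, and 0 to 3.26% without single libraries. From d0 to d5FS, 29 calls became 13 by DESeq2 when changes were tested against a log2 fold of 1, and 14 to 26 without single libraries. Over all genes, 22.8% became 7.12% by the former and 6.83% to 20.0% by the latter. With DESeq2 size factors the calls numbered 14, 1 and 29. Over all genes, the block raised the calls from 4.7% to 9.08% (d0 to d3F) and from 1.54% to 6.31% (d3F to d5FS). It changed no call of a guidance gene beyond those given with their values. The causes of these shifts were not tested. With 2 libraries per population and 3 residual degrees of freedom, a gene with a log2 fold change above 1 can miss the threshold, and the libraries come from 1 cell line, so other lines may differ. Of the genes called in d5FS, Epha8, Ntn4, Plxna4, Robo4, Sema3a, Sema4a, Sema4f and Sema6d were not tested with at least 10 counts in every library.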
